A study of Triticum aestivum with 15 samples.

Results

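Flag leaves of bread wheat were read for the loci whose RNA level was higher at grain filling (GF) than at heading (HD) in well-watered plants. A locus was taken when it held a reference gene, when its lowest FPKM (the fragment count scaled for transcript length and library depth) in the 4 GF wet libraries was at least 5, and when that lowest value was at least 3 times its highest FPKM in the 3 HD wet libraries. Loci on the first parts of chromosomes 1A, 1B and 1D were left out, and so were loci whose lowest GF wet value was at least 4 times their highest GF dry value. The rule found 12 of the 122017 loci of the merged catalogue. Of the 110167 loci with a reference gene, 9510 reached the minimum in GF wet leaves and 18 passed the rise, of which 1 lay on a chromosome part left out and 5 were left out as lost under drought at GF. The wet libraries chose the members, so values in those libraries, and changes of members measured against them, are given as a description. That holds for HD dry against HD wet as well, since HD wet was chosen to be low.

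The plants were the hard red winter wheat cultivars TAM112 and TAM111, grown in pots in a greenhouse under a dry or a wet treatment and sampled at GF, 100 days after transplanting, or at HD, 79 days after transplanting. Leaves of the main tillers of 4 plants were pooled per library. The 8 combinations of cultivar, stage and treatment held 15 libraries, of which TAM111 HD wet had 1 and each other combination 2. Age here is the difference between 2 sampling days of different plants, and stage, leaf age and sampling day cannot be told apart. By the methods of the study, the water deficit began at jointing, before both samplings. GF dry leaves had thus been under drought for longer than HD dry leaves. What is called age under drought below therefore cannot be told apart from the length of the drought.

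The flag leaf is the uppermost leaf of a cereal tiller and a main source of assimilate for the grain. After heading it ages toward senescence, in which chlorophyll and chloroplast proteins are broken down and nitrogen, phosphorus and sugars are exported to the grain. Drought is known to hasten leaf senescence in cereals. The question put to the 12 loci was therefore whether their level in HD dry leaves already stood above HD wet leaves and near GF wet leaves.

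At 10 of the 12 loci no HD dry library reached the lowest GF wet value as listed, and at the other 2 only 1 of the 4 did. The rule set that value at a multiple of the highest HD wet value, so a smaller rise under drought fell short of it. How often other loci reached it was not counted. These counts are therefore a description and cannot decide whether drought brought the members near GF wet leaves. These counts change at 2 loci once the catalogue loci that overlap them are added. At TraesCS6A01G136600 the HD dry sums were then 201 to 273 FPKM, against a lowest GF wet sum of 210 FPKM. At TraesCS4A01G305900 they were 0 to 30.9 FPKM, against 9.96 FPKM. On these sums the GF wet and HD wet libraries of both loci overlapped as well. Of the 12 loci, 11 entered the fit, and TraesCS6A01G136600 was listed at 0 in every HD library, so that 10 could show a change at heading. Between HD dry and HD wet, 0 of these 10 passed the call of limma (Benjamini-Hochberg adjusted p below 0.05 over all loci and a change of at least 1 on the log2 scale), where 1.04% of the 49025 loci tested were called (0.381% higher and 0.657% lower in HD dry). At an unadjusted p below 0.05 there were 2, TraesCS7A01G009800 higher and TraesCS5D01G228400 lower, where 5777 of the 49025 loci were below it. The libraries of HD dry lay wholly above those of HD wet at 2 members, where 6.65% of all loci did, and wholly below at 2, where 4.8% did. Nothing is read from these counts, because the rule used the HD wet libraries. In dry leaves the loci then parted, since between GF dry and HD dry 4 rose, 1 fell and 6 were not called.

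Several facts of the libraries bear on these values. Between the 2 libraries of a group, 14.7% to 17.3% of the loci tested differed by at least 2-fold. The depth, estimated from the deposited confidence bounds, was 6.32 M to 8.65 M fragments per library, and the share of the FPKM of a library that lay on no catalogue locus was 0.932% to 26.1%. TAM111 GF wet replicate 1 showed 84.4% and TAM111 HD dry replicate 1 showed 78.2% of the loci otherwise restricted to TAM112, against 0.654% to 3.85% in the other TAM111 libraries. These 2 libraries thus went against their cultivar label in part. For the members, drought at heading and age under drought (means of both cultivars) and the cultivar difference at heading were fitted again without them. The result is given where that changed a call. Other calls below are given with all libraries, and their dependence on these 2 libraries was not tested. The 8 loci of green leaf genes (chlorophyll a-b binding proteins, Rubisco activase, a photosystem II polypeptide and light-regulated proteins) summed to 1022 to 1488 FPKM in GF dry, 45.3 to 509.9 in GF wet, 489 to 1045 in HD dry and 291 to 830 in HD wet. The products moved apart within that sum. The 2 chlorophyll a-b binding loci summed to 2.55 to 16.0 FPKM in GF dry and 89.2 to 188 in HD dry, while the 2 light-regulated loci summed to 521 to 1153 in GF dry and 274 to 784 in HD dry. The photosystem II locus had 84.4 to 188 FPKM in GF dry and 8.32 to 23.8 in HD dry. The 3 Rubisco activase loci summed to 73.2 to 457 in GF dry and 42.0 to 104 in HD dry. The study chose these loci as dry-wet differences on these samples, so their differences under drought are no independent evidence. The part of these markers in the results was not tested. The single floral marker, a pistillata-like MADS-box locus, was listed at 0 in 13 libraries and at 3.24 and 4.24 FPKM in the other 2. In bulk leaf RNA, fewer cells of a type and less RNA per cell cannot be told apart. By the methods of the study, the replicates of a treatment had pots of their own in 1 greenhouse experiment with the sampling time as block, so p-values measure the spread between such replicates.

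**Figure D1:**
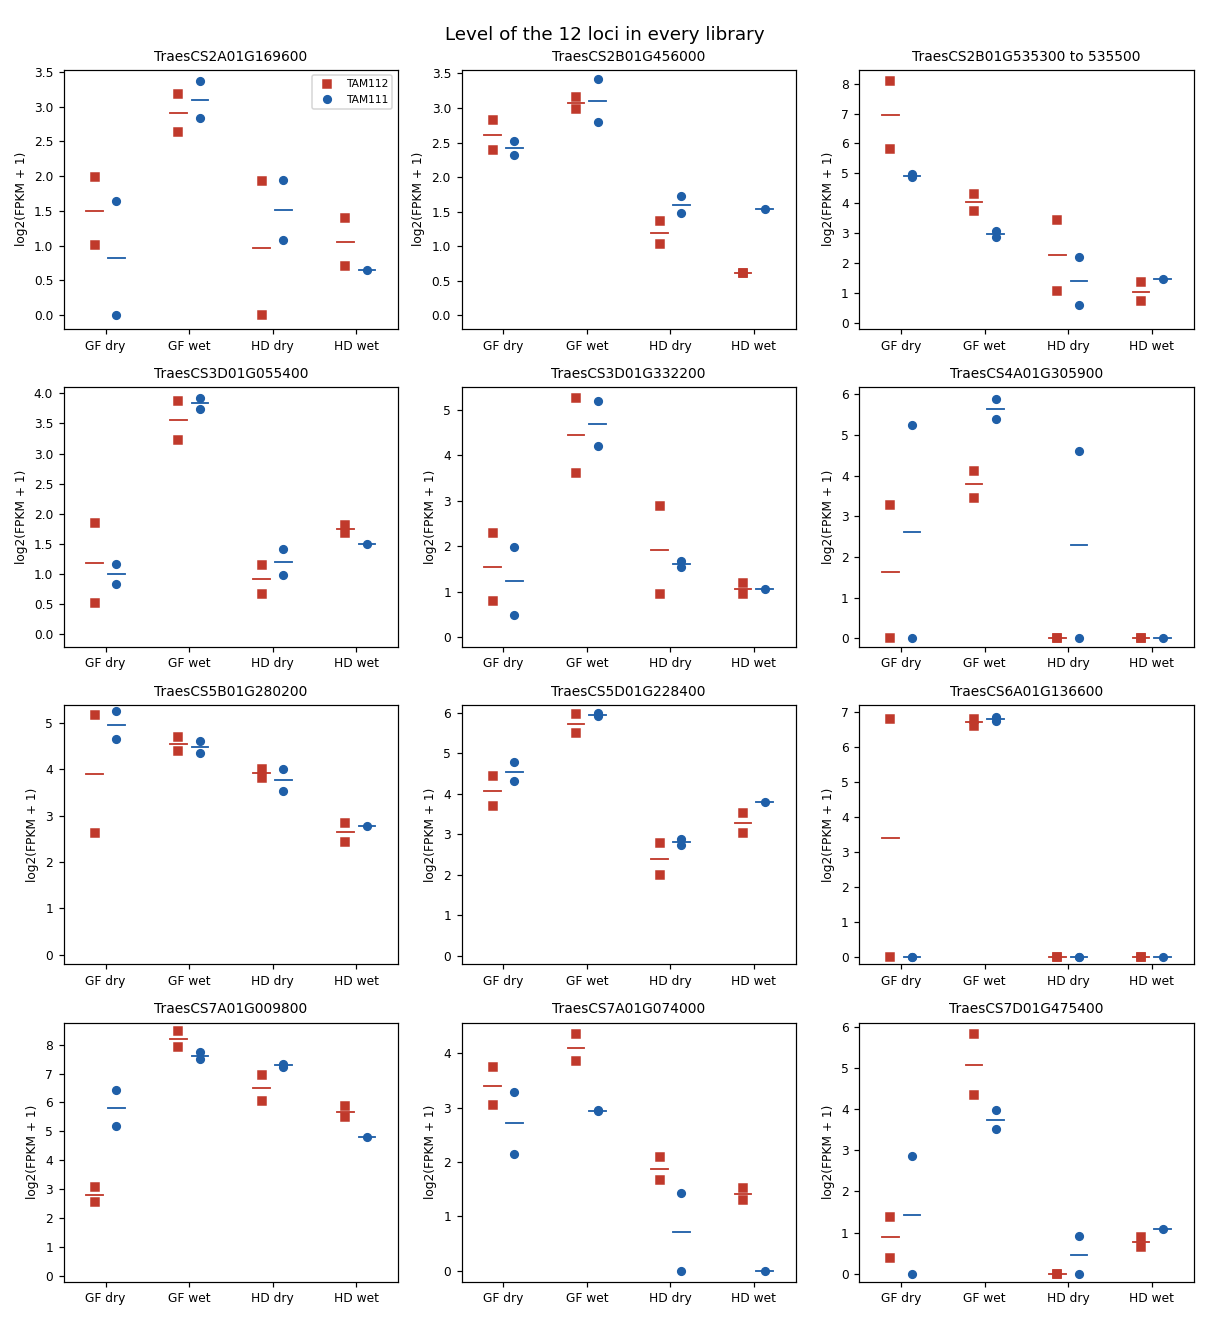
Level of each of the 12 loci in every library, as log2(FPKM + 1), in GF dry, GF wet, HD dry and HD wet leaves (squares, TAM112; circles, TAM111; short lines, group means). All GF wet points lie above all HD wet points because the rule required it, while GF dry points lie high at some loci and low at others.

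TraesCS7A01G009800 had the highest FPKM in GF wet leaves and the largest change under drought at heading. It lies on the minus strand of chr7A_part1 of IWGSC RefSeq v1.0, at 4429666 to 4433267, with 5 assembled transcripts and no product name in the tables used here. Its HD dry values were 66.0 and 121 FPKM in TAM112 and 159 and 150 FPKM in TAM111, against HD wet values of 57.5 and 44.2 FPKM in TAM112 and 27.2 FPKM in TAM111. Every HD dry library stood above every HD wet library, and 338 to 1374 fragments lay behind each of these values. The change was 1.64 ± 0.34 on the log2 scale (SE, mean of both cultivars). It was 0.82 ± 0.43 in TAM112 and 2.46 ± 0.53 in TAM111, where the single HD wet library enters it.

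The GF wet level of this locus was 353 and 242 FPKM in TAM112 and 212 and 179 FPKM in TAM111. HD dry leaves thus stood at 61.7% of the way from HD wet to GF wet on the log2 scale, a description that rests in part on the libraries used by the rule. With age under drought the locus did not go on rising. GF dry leaves had 7.36 and 4.88 FPKM in TAM112 and 35.3 and 85.4 FPKM in TAM111, and the lowest HD dry library (66.0 FPKM) stood above 3 of these 4 values. The fall from HD dry was called in the mean of both cultivars (-2.58 ± 0.31, adjusted p = 0.0028, limma) and in TAM112 alone (-3.69 ± 0.43, adjusted p = 0.00543, limma), and in TAM111 it was -1.47 ± 0.43 (adjusted p = 0.163, limma). In GF dry leaves TAM112 was lower than TAM111 by a called difference of -3.00 ± 0.43 (adjusted p = 0.00903, limma), the only such call among the 11 members, where 1.7% of all loci were called. The difference in the fall itself between the cultivars was -2.22 ± 0.61 and was not called (adjusted p = 0.453, limma).

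TraesCS5B01G280200 (chr5B_part2, 14628091 to 14629506, plus strand) was the other member whose dry and wet libraries did not overlap at heading in the upward direction. HD dry leaves had 12.99 and 15.1 FPKM in TAM112 and 15.1 and 10.5 FPKM in TAM111, against 6.17 and 4.38 FPKM in TAM112 HD wet and 5.89 FPKM in TAM111 HD wet. The change was 1.13 ± 0.52 on the log2 scale. Only 2.0 to 5.7 fragments lay behind each HD dry value and 1.0 to 1.7 behind each HD wet value, so the separation rests on a few fragments per library. Its GF dry values were 35.1 and 5.18 FPKM in TAM112 and 36.8 and 24.0 FPKM in TAM111, and the change from HD dry was 0.59 ± 0.46, not called with all libraries and called without TAM112 GF dry replicate 2 (1.22, adjusted p = 0.0169, limma).

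TraesCS3D01G055400 (chr3D_part1, 23057699 to 23061498, plus strand, 4 assembled transcripts) was the only member with a product name, sulfoquinovosyl transferase SQD2. In Arabidopsis, SQD2 catalyses the last step in the synthesis of sulfolipid, a sulfur-containing lipid of chloroplast membranes that can stand in for phospholipid when phosphate is short. Its GF wet values were 13.7 and 8.40 FPKM in TAM112 and 12.3 and 14.2 FPKM in TAM111. At heading the dry leaves were lower, not higher, with 0.602 and 1.22 FPKM in TAM112 and 1.68 and 0.975 FPKM in TAM111, against 2.20 and 2.52 FPKM in TAM112 HD wet and 1.83 FPKM in TAM111 HD wet. The 2 groups did not overlap, and the change was -0.56 ± 0.33. The locus did not rise with age in dry leaves either, with GF dry values of 2.60 and 0.437 FPKM in TAM112 and 1.24 and 0.777 FPKM in TAM111 and a change from HD dry of 0.03 ± 0.30 (adjusted p = 0.979, limma).

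Loci with the same product lie on chromosomes 3A (TraesCS3A01G055500, chr3A_part1, 32145987 to 32149598) and 3B (TraesCS3B01G067900, chr3B_part1, 40235625 to 40239494), and they were picked for their product and read after the member was known. The 3A locus had 30.4 and 24.1 FPKM in TAM112 GF wet and 27.8 and 47.6 FPKM in TAM111 GF wet, against 10.9 and 7.40 FPKM in TAM112 HD wet and 9.90 FPKM in TAM111 HD wet. It missed the rise of the rule because its lowest GF wet value was less than 3 times its highest HD wet value. It would also have been left out as lost under drought at GF, as its highest GF dry value was 3.54 FPKM. The age change in wet leaves was 1.63 ± 0.30 at the 3A locus (adjusted p = 0.064, limma) and 0.64 ± 0.34 at the 3B locus (adjusted p = 0.563, limma). Under drought at heading the changes were -0.45 ± 0.30 at 3A and -1.10 ± 0.34 at 3B, and neither was called (adjusted p = 0.639 and 0.206, limma). With age under drought the 3A locus fell by 1.18 on the log2 scale (SE 0.27, adjusted p = 0.0288, limma), and the 3B change was -0.75 ± 0.30 (adjusted p = 0.158, limma). At each of the 3 loci the mean under drought was thus below that of wet leaves at heading, as a value and not as a call. The tables of the study name 6 loci besides the member with a function in phosphate starvation, of which 5 were tested. Of these, 0 were called by limma with age in wet leaves or under drought at heading. In each comparison 1 had an unadjusted p below 0.05, as did 5164 and 5777 of the 49025 loci, in that order. With age under drought 2 of the 5 rose and 1, the 3A locus, fell, where 3.67% of all loci rose and 1.87% fell. All 5 had an unadjusted p below 0.05 there, as did 12119 of the 49025 loci. The study chose these loci as dry-wet differences on these samples, so their direction is no independent evidence.

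**Figure D2:**
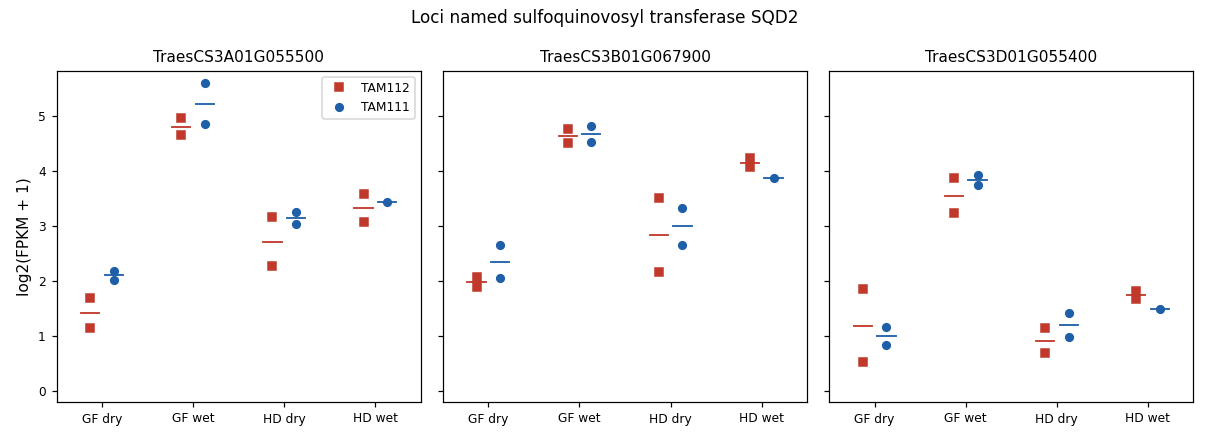
Level of the 3 loci named SQD2, on chromosomes 3A, 3B and 3D, as log2(FPKM + 1) in every library of GF dry, GF wet, HD dry and HD wet leaves (squares, TAM112; circles, TAM111; short lines, group means). At each locus the 4 GF wet points are the highest and the dry points at heading are no higher on average than the wet ones.

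TraesCS5D01G228400 (chr5D_part1, 335866254 to 335869486, plus strand) also stood lower under drought at heading. HD dry leaves had 5.95 and 3.01 FPKM in TAM112 and 5.65 and 6.43 FPKM in TAM111, against 7.24 and 10.5 FPKM in TAM112 HD wet and 12.9 FPKM in TAM111 HD wet. No HD dry library reached an HD wet one, with 18.0 to 84.0 fragments behind each value. The change was -0.93 ± 0.28. This locus nevertheless rose with age in dry leaves, to 20.5 and 11.9 FPKM in TAM112 GF dry and 26.6 and 18.8 FPKM in TAM111 GF dry, a called change of 1.69 ± 0.25 (adjusted p = 0.00644, limma). The GF dry level stayed under the GF wet level of 61.2 and 44.0 FPKM in TAM112 and 62.6 and 59.4 FPKM in TAM111 in every library.

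Of the 11 members tested, 4 rose between GF dry and HD dry leaves and 1 fell, where over all loci 5.53% were called, 3.67% higher and 1.87% lower. The same 4 were the members whose GF dry libraries all lay above their HD dry libraries, which 9.89% of all loci did. The HD dry and GF dry libraries did not enter the condition on the rise, although loci were left out where the lowest GF wet value was at least 4 times the highest GF dry value. The median change over the 11 members was 0.93 on the log2 scale, against 0.06 over all loci. Leaving out loci low in GF dry tends to raise the GF dry level of those kept. With the lost loci kept, 4 of 16 loci tested rose and 1 fell, and the median change was 0.54. Leaving out the 2 TAM111 libraries that resemble TAM112 left 3 rises and 1 fall, with the locus of 3 genes on 2B then at an adjusted p of 0.0517 (limma). In a fit of the GF dry and HD dry groups alone there were 2 rises and 1 fall, with the same locus at 0.0563 and TraesCS7A01G074000 at 0.0951 (adjusted p, limma).

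**Figure D3:**
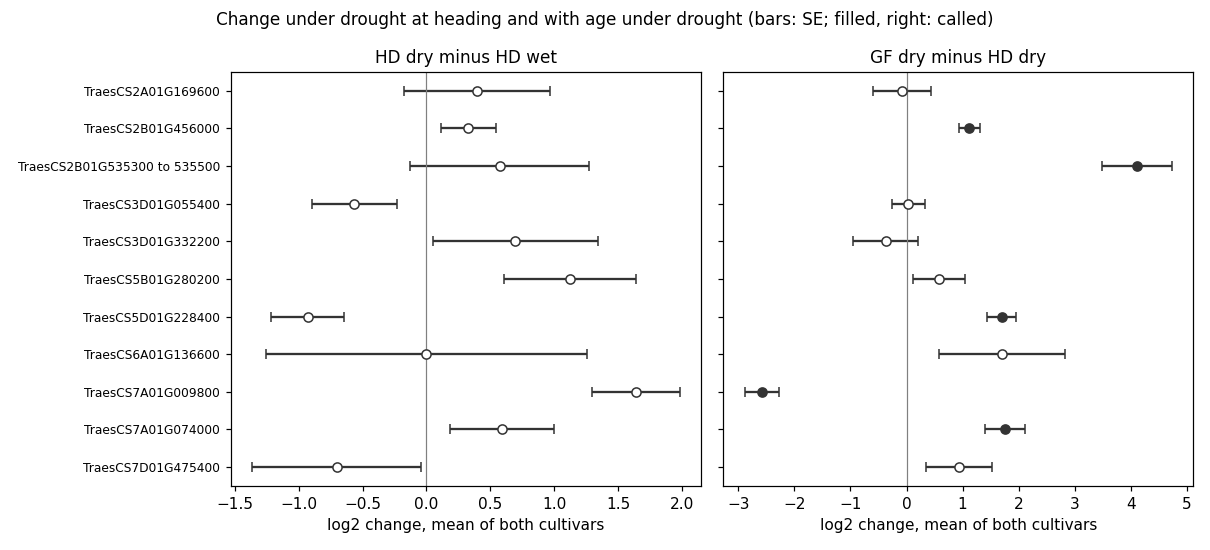
Change of the 11 members tested between HD dry and HD wet (left) and between GF dry and HD dry (right), as a log2 change averaged over both cultivars. Points are estimates and bars are SE. The left panel is a description, in which TraesCS6A01G136600 is at 0 because every HD library is. On the right filled points passed the threshold, 4 above 0 and 1, TraesCS7A01G009800, below it.

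The largest of these rises was at the locus that joins TraesCS2B01G535300, TraesCS2B01G535400 and TraesCS2B01G535500 (chr2B_part2, 278124789 to 278244038, minus strand, 12 assembled transcripts). GF dry leaves had 272 and 55.7 FPKM in TAM112 and 30.4 and 28.2 FPKM in TAM111, against 9.89 and 1.11 FPKM in TAM112 HD dry and 0.506 and 3.66 FPKM in TAM111 HD dry. The change was 4.11 ± 0.63 (adjusted p = 0.00702, limma), and it was the only member whose GF dry values all lay above its GF wet values of 19.0 and 12.3 FPKM in TAM112 and 6.37 and 7.35 FPKM in TAM111. The assembly of this locus differed between libraries. An entry longer than 100000 bp lay on it in 4 of 4 GF dry, 2 of 4 GF wet, 1 of 4 HD dry and 0 of 3 HD wet libraries, with further entries beside it in 1 of the GF dry and 1 of the GF wet libraries, while the other libraries held only shorter entries. In TAM112 GF dry replicate 1 the long entry had 157 of the 272 FPKM. The part of the assembly in the result was not tested.

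TraesCS7A01G074000 (chr7A_part1, 39490363 to 39495223, plus strand, 13 assembled transcripts) rose under drought as well. It had 7.22 and 12.4 FPKM in TAM112 GF dry and 3.42 and 8.76 FPKM in TAM111 GF dry, against 3.25 and 2.19 FPKM in TAM112 HD dry and 1.71 and 0 FPKM in TAM111 HD dry. The change was 1.76 ± 0.36 (adjusted p = 0.0206, limma). The call was lost without TAM111 GF dry replicate 2 (adjusted p = 0.0541, limma) or TAM112 HD dry replicate 2 (adjusted p = 0.0712, limma), and with a pseudocount of 0.1 (adjusted p = 0.0602, limma). Its GF wet values were 13.5 and 19.3 FPKM in TAM112 and 6.69 and 6.71 FPKM in TAM111, so that the GF dry and GF wet libraries overlapped.

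TraesCS2B01G456000 (chr2B_part2, 197263414 to 197267183, plus strand) showed the smallest of the 4 rises and the smallest error. It had 6.09 and 4.26 FPKM in TAM112 GF dry and 4.001 and 4.74 FPKM in TAM111 GF dry, against 1.03 and 1.58 FPKM in TAM112 HD dry and 1.80 and 2.29 FPKM in TAM111 HD dry. The change was 1.12 ± 0.19 (adjusted p = 0.0107, limma), on 7.0 to 11 fragments per GF dry library and 2.0 to 4.0 per HD dry library. With quantile normalization the change was 0.98, under the limit of 1, and the call was lost. The GF wet leaves had 7.98 and 6.92 FPKM in TAM112 and 5.94 and 9.67 FPKM in TAM111.

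At 3 further members the GF dry and HD dry libraries overlapped and no change with age under drought was called. TraesCS3D01G332200 (chr3D_part1, 444482693 to 444486699, plus strand) had 3.88 and 0.747 FPKM in TAM112 GF dry and 2.95 and 0.409 FPKM in TAM111 GF dry, against GF wet values of 37.1 and 11.3 FPKM in TAM112 and 17.3 and 35.5 FPKM in TAM111. Its HD dry values, 6.39 and 0.928 FPKM in TAM112 and 1.92 and 2.22 FPKM in TAM111, overlapped those at GF dry, with a change of -0.37 ± 0.58 (adjusted p = 0.746, limma). TraesCS2A01G169600 (chr2A_part1, 124390902 to 124391706, plus strand) had 0 to 2.96 FPKM in GF dry, 5.22 to 9.29 FPKM in GF wet and 0 to 2.83 FPKM in HD dry, with an age change under drought of -0.08 ± 0.51. TraesCS7D01G475400 (chr7D_part2, 133576056 to 133583340, plus strand) had 1.62 and 0.31 FPKM in TAM112 GF dry and 6.26 and 0 FPKM in TAM111 GF dry, and was listed at 0 in 3 of the 4 HD dry libraries and at 0.886 FPKM in the other. The change from HD dry was 0.93 ± 0.59 (adjusted p = 0.376, limma), and the GF wet values were 55.6 and 19.5 FPKM in TAM112 and 14.7 and 10.4 FPKM in TAM111.

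Across the 11 members, the GF dry libraries lay wholly below the GF wet libraries at 6 and wholly above at 1, where 5.35% and 11.9% of all loci did. The GF wet libraries were those chosen to be high, so these counts are a description only.

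At 2 of the 12 loci the GF wet and HD wet libraries overlapped once the catalogue loci that share their place were counted together. TraesCS6A01G136600 (chr6A_part1, 107692104 to 107701399, plus strand) had the largest listed rise, at 95.5 and 110.8 FPKM in TAM112 GF wet and 107 and 115 FPKM in TAM111 GF wet, and was listed at 0 in each HD wet and HD dry library and in 3 of the 4 GF dry libraries. The deposited entry with the span of this locus was at 0 in all 15 libraries. Its listed values came from the entry of a locus that overlaps it on the opposite strand and carries the same gene name. That entry ran over both places in the libraries listed at 0 and was split into a piece at each place in the others. The sum over the overlapping loci was 210 and 325 FPKM in TAM112 GF wet and 248 and 262 FPKM in TAM111 GF wet, against 224 and 209 FPKM in TAM112 HD wet and 277 FPKM in TAM111 HD wet. On that sum the wet age change was 0.08 ± 0.19 and the groups overlapped. The change under drought at heading was -0.04 ± 0.19, and with age under drought it was 0.49 ± 0.17 (adjusted p = 0.1, limma).

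TraesCS4A01G305900 (chr4A_part2, 148373845 to 148460163, minus strand) was the member that was not tested, because entries that overlap it were assigned to other loci in some libraries. It had 16.4 and 9.96 FPKM in TAM112 GF wet and 57.7 and 40.7 FPKM in TAM111 GF wet, and was listed at 0 in each HD wet library. GF dry leaves had 8.69 and 0 FPKM in TAM112 and 36.8 and 0 FPKM in TAM111. In HD dry leaves it was listed at 0 in 3 libraries, both of TAM112 among them. The other, TAM111 replicate 1, had 23.2 FPKM and is a library that resembles TAM112 in part. With overlapping loci added, the values were 69.6 and 9.96 FPKM in TAM112 GF wet and 57.7 and 40.7 FPKM in TAM111 GF wet, against 6.88 and 20.8 FPKM in TAM112 HD wet and 10.9 FPKM in TAM111 HD wet, which overlap. The longest assembled transcript is 289 bp, and at most 28.8 fragments lay behind a value of the locus itself.

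The last comparison set the cultivars against each other in droughted leaves at heading. Between TAM112 HD dry and TAM111 HD dry, 0 of the 10 members above 0 in these libraries were called by limma, where 0.636% of all loci were. Of these members 1 had an unadjusted p below 0.05, as did 3866 of the 49025 loci tested. That member was TraesCS7A01G074000, higher in TAM112 by 1.16 ± 0.51 on the log2 scale (adjusted p = 0.625, limma). The median difference over the 10 members was -0.35, against 0.02 over all loci.

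Because the HD wet libraries were chosen to be low, any member tends to stand higher in HD dry by that choice. The median of HD dry minus HD wet over the 10 members above 0 at heading was 0.48, against 0.04 over all loci, with 7 changes above 0. A reading on libraries that did not choose the loci takes the rule on 1 cultivar and reads the loci in the other. The cultivars are not fully apart in it, because TAM111 GF wet replicate 1, used to choose on TAM111, showed 84.4% of the loci otherwise restricted to TAM112. In TAM111 each change against HD wet rests on 1 HD wet library, so the deviation of that library enters every change read there. On TAM111 alone the rule took 131 loci, of which 115 were tested, and on TAM112 alone 59, of which 53 were tested, with 9 in both lists. The loci chosen on TAM111 were higher at GF wet than at HD wet in TAM112 at 82 of 115 (71.3%, against 46.9% of all loci), with a median of 0.73, and 3 were called higher, where 0.104% of all loci were. The loci chosen on TAM112 were higher at GF wet in TAM111 at 43 of 53 (81.1%, against 47% of all loci), with a median of 0.78. Of these, 0 were called higher by limma, where 0.0775% of all loci were. At an unadjusted p below 0.05, 16 of the 53 were higher, as were 1318 of the 49025 loci tested.

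The drought change at heading was read in the same way. In TAM112, 66 of the 115 loci chosen on TAM111 were higher in HD dry than in HD wet (57.4%, against 53.7% of all loci), with a median of 0.22 against 0.04 over all loci, and 1 was called higher, where 0.306% of all loci were. In TAM111, 28 of the 53 loci chosen on TAM112 were higher in HD dry (52.8%, against 48.1% of all loci), with a median of 0.02 against 0 over all loci. Of the 53, 0 were called higher by limma, where 0.0592% of all loci were. At an unadjusted p below 0.05, 4 of the 53 were higher, as were 1438 of the 49025 loci tested. Without the 2 TAM111 libraries that resemble TAM112, the medians in TAM111 were 1.13 for wet age and 0.07 for drought at heading. The list chosen on TAM111 uses 1 of these 2 libraries and was not chosen again without it. With age under drought, 10 of the 115 loci were called higher in TAM112, where 1.98% of all loci were, and 1 of the 53 was called higher in TAM111, where 0.814% of all loci were.

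**Figure D4:**
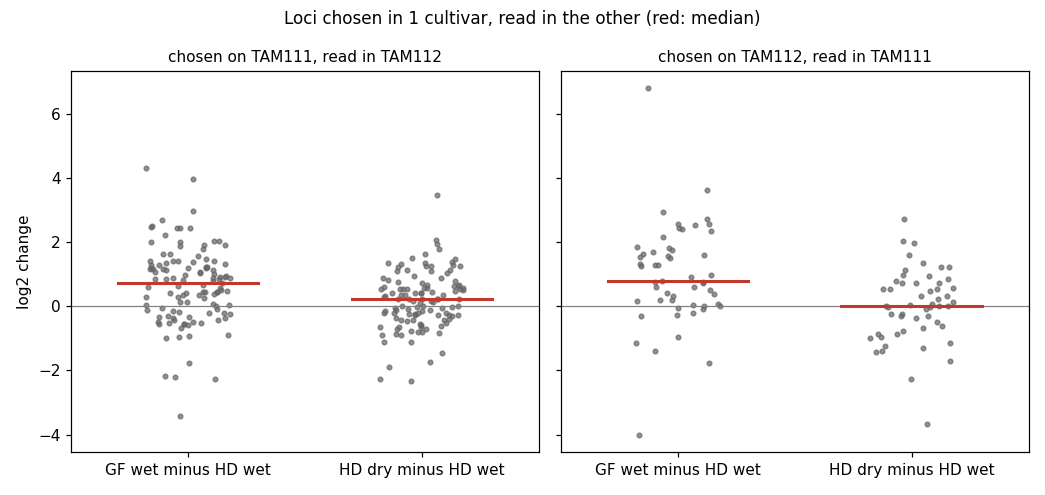
Log2 change between GF wet and HD wet and between HD dry and HD wet, for the 115 loci chosen on TAM111 and read in TAM112 (left) and the 53 chosen on TAM112 and read in TAM111 (right). Each point is a locus and the red lines are medians, at 0.73 and 0.22 on the left and 0.78 and 0.02 on the right.

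The tables of the study name products of its dry-wet differences, and the words of those products set the groups given here, which held none of the members. Of 30 tested loci for nutrient transport, 26 for nitrogen and carbon breakdown, 18 for protein turnover and 31 for transcription factors, 0 were called by limma between GF wet and HD wet in either direction. In that order, 4, 9, 2 and 4 of them had an unadjusted p below 0.05, as did 5164 of the 49025 loci tested. The medians in the same order were 0.14, 0.36, -0.01 and -0.18 on the log2 scale, and over all loci 0.143% were called higher. Between GF dry and HD dry, where 3.67% of all loci rose and 1.87% fell, 13 of the 26 loci for nitrogen and carbon breakdown rose and 5 fell, 3 of the 18 for protein turnover rose and 0 fell, 5 of the 30 for nutrient transport rose and 4 fell, and 4 of the 31 for transcription factors rose and 2 fell. Under drought at heading, 0.381% of all loci were called higher and 0.657% lower, and 5777 of the 49025 had an unadjusted p below 0.05. Of the 26 for nitrogen and carbon breakdown, 0 were called by limma in either direction and 8 had an unadjusted p below 0.05. Of the 18 for protein turnover, 3 were called higher and 1 lower. For transcription factors 4 of the 31 were called higher and 2 lower, with a median of 0.73, and for nutrient transport 0 of the 30 were called higher and 3 lower, with a median of -0.67. Of the 29 tested loci for late embryogenesis abundant proteins and dehydrins, which protect cells as they dry, 15 rose with age under drought, 3 rose under drought at heading, and with age in wet leaves 0 rose and 1 fell. Groups were also set for receptor kinases, heat shock proteins and chaperones, and photosynthesis. With age in wet leaves 1 of the 94 tested receptor kinase loci rose and 1 of the 55 heat shock loci fell. Of the 16 photosynthesis loci 0 were called by limma there, with 6 at an unadjusted p below 0.05. Under drought at heading 27 of the 94 were called lower and 0 higher, and 23 of the 55 higher and 1 lower. Of the 16, 2 were lower and 0 higher. The study chose all of these loci as dry-wet differences on these samples, so their counts under drought are not independent evidence of a direction.

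Around the threshold of the rule, the members just inside were TraesCS5B01G280200, TraesCS7A01G009800 and TraesCS2B01G456000, with a lowest GF wet value 3.12, 3.12 and 3.15 times the highest HD wet value. The loci just outside were TraesCS1D01G408300, TraesCS7B01G277700 and the locus that joins TraesCS2B01G538600 to TraesCS2B01G538800, at 2.96, 2.87 and 2.73 times. The 2 members with the largest ratio among those above 0 in HD wet were TraesCS7D01G475400 at 9.22 and TraesCS3D01G332200 at 8.71.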

How the data were processed

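Per the labels and the methods of the study, total RNA of pooled flag leaves was made into TruSeq v2 libraries, bcl2fastq 1.7 and Trimmomatic 0.38 prepared the reads, and TopHat2 and Cufflinks aligned and assembled them. The authors deposited FPKM per entry of each library, with confidence bounds and no scaling across libraries, and a merged catalogue on IWGSC RefSeq v1.0. Cuffdiff output was not used here.

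Entries were assigned to catalogue loci by gene name, otherwise by overlap (bedtools 2.31.1), without strand, so reads of a gene and its antisense partner cannot be told apart, and FPKM was summed per locus. Loci with at least 1 FPKM in 2 libraries were tested, apart from loci whose entries went elsewhere in some library (1895 in the catalogue). On log2(FPKM + 1), a scale that understates changes of low loci, limma 3.58.1 in R 4.3.3 fitted the 8 group means to 15 libraries (7 residual degrees of freedom), and TAM111 HD wet, with 1 library, was assumed to vary like the other groups. P-values were adjusted by Benjamini-Hochberg over 49025 loci. How large a change this fit can call at the low members at heading was not tested.

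Fragments behind a value were taken from the bounds, with 79.3% to 80.3% of low entries within 0.05 of a whole number. They are estimates and cover counting error only. Named loci were the members with a product, the highest and the largest ratio, the extremes of each contrast among those called or tested, and those next to the threshold, which came to all 12, and SQD2 loci were added after their values were seen. Product names came from supplementary tables of the study, with words fixed for each group. Members and lists were chosen with earlier results of these data known. Sequences and protein functions of members without a product were not analysed here. Other settings tried are a smaller pseudocount, no filter, median-ratio and quantile scaling, a replicate block, fewer libraries, reference-named entries only and other limits of the rule.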

Additional observations from a re-analysis of the deposited data

Results flagged for a closer look

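Among 36 sets of 4 libraries (12 loci in GF dry, GF wet and HD dry), 4 held a library far from the other 3, by Dixon's criterion at the 95% level. Where the other 3 libraries are all listed at 0, any value above 0 is flagged by construction. That was so at TraesCS4A01G305900, TraesCS7D01G475400 and TraesCS6A01G136600. The 95% level does not hold for such sets, for sets that pool both cultivars, or for GF wet libraries chosen by the rule. The count of 4 is therefore not compared with chance. TraesCS4A01G305900 was at 23.2 FPKM in TAM111 HD dry replicate 1 and listed at 0 in the other 3 HD dry libraries. TraesCS7D01G475400 was at 0.886 FPKM in the same library and listed at 0 in the other 3. That library is among the 2 that carry loci of TAM112, and both TAM112 HD dry libraries were listed at 0 at these loci. TraesCS6A01G136600 was at 110.8 FPKM in TAM112 GF dry replicate 2 and listed at 0 in the other 3 GF dry libraries, where its entry went to the overlapping locus. TraesCS5D01G228400 was at 44.0 FPKM in TAM112 GF wet replicate 2, the lowest of the GF wet libraries. No member had a called difference between the cultivars in its drought change at heading or its age change under drought. Over all 49025 loci tested, 75 and 106 had one, in that order, so nothing is read from the members.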

How the results depend on the processing

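With reference-named entries only, the rule took 11 members, of which 1 was among the 12. With a minimum of 2 FPKM there were 21 members and with a minimum of 10 there were 6. A rise of at least 2 times in place of 3 gave 33, and of 4 times gave 4. Leaving out each wet library in turn gave 14 to 28.

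For drought at heading the count of called members was 0 to 1 when each library was left out in turn, with TraesCS7A01G009800 called only without TAM111 GF dry replicate 1 or replicate 2. Leaving out TAM111 HD wet replicate 1 gave no value for this contrast. Loci chosen on TAM111 and read in TAM112 gave 1 call. For age under drought the count of 5 became 3 in a fit of its own groups and 0 with reference-named entries only, where 6 members remained in the test. Loci chosen in 1 cultivar and read in the other gave 11 calls in TAM112 and 1 in TAM111. The range without each library was 4 to 6.

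The median change of members was -0.73 for drought at heading and 0.15 for age under drought with reference-named entries only, and 0.15 for age under drought in the loci chosen on TAM111 and read in TAM112. With reference-named entries only, the age change under drought of TraesCS7A01G009800 was 1.40. At this locus the reference-named entries were at 0 in every HD dry library and in both TAM111 GF dry libraries. In TAM112 GF dry they were at 7.36 and 4.88 FPKM. The HD dry values of the whole locus, 66.0 to 159 FPKM, were thus left out, and the value of 1.40 is not a rise of the locus. These entries leave out most values of the members, and their part in the medians was not tested. The ranges of the median without each library were 0 to 0.69 for drought at heading, 0.44 to 1.18 for age under drought and -0.33 to 0 for the cultivar difference.

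With the replicate block, 0, 5 and 0 members were called for drought at heading, age under drought and the cultivar difference, as without it. The replicate numbers did not pair the libraries, since same-numbered libraries of different groups deviated together with correlations of -0.0373 to 0.0922. Among the members, 9 calls for age under drought were lost and 2 gained over all settings, and 2 were gained for drought at heading. Depth limits the low members, at which 1.0 to 10 fragments decide a value.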
